A study of Arabidopsis thaliana with 6 samples.

Results

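Among the genes of the WRKY and MYB transcription factor families, 6 WRKY genes could be measured in Arabidopsis thaliana plants that were short of oxygen: WRKY6 (AT1G62300), WRKY20 (AT4G26640), WRKY22 (AT4G01250), WRKY42 (AT4G04450), WRKY47 (AT4G01720) and WRKY53 (AT4G23810). They were chosen by gene symbol, as every probe set that names 1 gene whose symbol begins with WRKY or MYB and a number, out of 13355 genes with such a probe set. The TAIR10.1 gene table holds 67 WRKY and 120 MYB symbols of this form. The annotation used here pairs a probe set with 6 of the former and with 0 of the latter, so the MYB family is not analysed here and the families could not be set side by side. Each WRKY gene has 1 probe set, so no choice between probe sets was needed.

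Total RNA was the starting material for 6 arrays in 2 groups of 3. One group was wild type, and the other was 35S:PCO1, transgenic plants that overexpress the plant cysteine oxidase PCO1 from the 35S promoter of a plant virus, which is active in most tissues; the number of independent transformants is not stated. Plants of both groups were kept in darkness at 5% oxygen for 4 h, starting 2 h into the day, after growth on soil in short days of 8 h light and 16 h darkness. For age, both 4 and 5 weeks are recorded in the labels, and for the harvested material both the rosette and the whole plant. Plants in normal air are not part of the comparison, so a level under hypoxia does not show whether hypoxia raised it. Since nothing records separate plants or pools for the replicates, p-values refer to the spread between these arrays, part of which may be technical.

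WRKY proteins are plant transcription factors named for the conserved amino acids of their DNA-binding domain, which reads the W-box element in promoters. They are known above all for immune responses and leaf senescence, and many of their own genes are switched on by stress, wounding or pathogens. The family is divided into groups by the number and type of these domains. Of the measured genes, WRKY20 belongs to group I, WRKY6, WRKY42 and WRKY47 to group IIb, WRKY22 to group IIe and WRKY53 to group III. MYB proteins form another large plant family, which includes regulators of flavonoids, glucosinolates, surface wax and cell walls. PCO1 itself acts on a separate family of activators, the group VII ethylene response factors that switch on hypoxia genes: with oxygen as substrate, it leads to their degradation.

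None of the 6 WRKY genes passed the test between 35S:PCO1 and wild type. The groups were compared with limma on the deposited log2 values, and a probe set was called at a Benjamini-Hochberg adjusted p under 0.05 over all 22746 tested probe sets, of which 0.264% were called (0.0703% higher and 0.193% lower in 35S:PCO1). The lowest adjusted p among the WRKY genes was 0.53. At an unadjusted p under 0.05, limma gave 0 of the 6 genes, against 10.4% of all tested probe sets. In 0 of the 6 did the arrays of one group lie wholly above or below those of the other, against 16.2% of all tested probe sets. On the log2 scale, the 35S:PCO1 mean lay below the wild-type mean in 5 of the 6, where 55.2% of all tested probe sets were below 0. The median log2 change, always given as 35S:PCO1 minus wild type, was -0.15 over the 6 genes and -0.012 over all tested probe sets.

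WRKY22 acts downstream of a mitogen-activated protein kinase cascade in immunity and is also known from submerged plants and from senescence in darkness. On the log2 scale its wild-type signal was 6.85, 6.96 and 7.29 for replicates 1, 2 and 3, and its 35S:PCO1 signal was 6.72, 7.06 and 6.66 in the same order. Wild type replicate 3 was the highest, but 35S:PCO1 replicate 2 lay above the other wild-type arrays, so the groups overlapped. Wild type averaged 7.03 ± 0.23 (SD, n = 3), while the 35S:PCO1 arrays averaged 6.81 ± 0.22 (SD, n = 3). The log2 change was -0.22 (SE 0.13, 95% interval -0.53 to 0.085, adjusted p = 0.62 by limma). The lower bound of this interval stands for a 1.44-fold lower level in 35S:PCO1, and larger decreases lie outside it. With 1 array left out, the log2 change ranged from -0.34 without 35S:PCO1 replicate 2 to -0.091 without wild type replicate 3.

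WRKY53 promotes leaf senescence. In wild type its log2 signal was 5.53, 5.57 and 5.97 in replicates 1, 2 and 3, and in 35S:PCO1 it was 5.45, 5.81 and 5.49. Here too wild type replicate 3 and 35S:PCO1 replicate 2 stood above the arrays of their own group, and the groups overlapped. With means of 5.69 ± 0.24 (SD, n = 3) and 5.58 ± 0.19 (SD, n = 3), the log2 change was -0.11 (SE 0.13, 95% interval -0.41 to 0.20, adjusted p = 0.84 by limma). Without wild type replicate 3 its sign turned, to a log2 change of 0.034, and without 35S:PCO1 replicate 2 the change was -0.22.

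WRKY6 and WRKY42, which belong to the same group, are both known as repressors of PHO1, a phosphate exporter of the root, and WRKY6 is also expressed in senescent leaves and infected tissue. The log2 signal of WRKY6 was 5.03, 5.00 and 5.17 in wild type and 4.87, 5.05 and 4.71 in 35S:PCO1 (replicates 1, 2 and 3). The groups overlapped through 35S:PCO1 replicate 2 alone, which lay above 2 of the 3 wild-type arrays. WRKY6 had the lowest p of the 6 genes, with a log2 change of -0.19 (SE 0.093, 95% interval -0.40 to 0.022, unadjusted p = 0.073 and adjusted p = 0.53 by limma). Of all tested probe sets, 3126 had a p at or below the p of WRKY6. Without 35S:PCO1 replicate 2 the log2 change was -0.28 (adjusted p = 0.29), and without 35S:PCO1 replicate 3 it was -0.11 (adjusted p = 0.83).

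WRKY42 gave log2 signals of 4.39, 4.16 and 3.91 on the wild-type arrays, replicates 1, 2 and 3, and of 3.98, 4.15 and 4.14 on those of 35S:PCO1. The 35S:PCO1 arrays all fell inside the wild-type range. Its log2 change was -0.061 (SE 0.11, 95% interval -0.32 to 0.20, adjusted p = 0.90 by limma), and it was 0.058 without wild type replicate 1. Changes at such dim signals can be compressed by RMA, and whether that holds for WRKY42 was not tested.

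WRKY47, the third measured gene of group IIb, had the largest difference in means and the largest spread. Replicates 1, 2 and 3 had log2 signals of 5.61, 5.77 and 6.31 for wild type, against 5.64, 5.58 and 5.78 for 35S:PCO1. Wild type replicate 3 lay above all other arrays, and the remaining 5 overlapped. The wild-type mean was 5.90 ± 0.37 (SD, n = 3), the 35S:PCO1 mean 5.67 ± 0.10 (SD, n = 3) and the log2 change -0.23 (SE 0.16, 95% interval -0.59 to 0.14, adjusted p = 0.68 by limma). With 1 array left out, that change ranged from -0.37 without wild type replicate 1 to -0.018 without wild type replicate 3.

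WRKY20, the group I gene, was the steadiest. Its log2 signal was 7.55, 7.58 and 7.46 in wild type and 7.60, 7.53 and 7.61 in 35S:PCO1 (replicates 1, 2 and 3), and the groups overlapped. The log2 change of 0.050 (SE 0.061, 95% interval -0.089 to 0.19, adjusted p = 0.84 by limma) was the only positive one of the 6. The interval holds changes from a level 1.06-fold lower to one 1.14-fold higher in 35S:PCO1. It was the narrowest interval among the WRKY genes. Without wild type replicate 3 the change was 0.015.

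**Figure D1:**
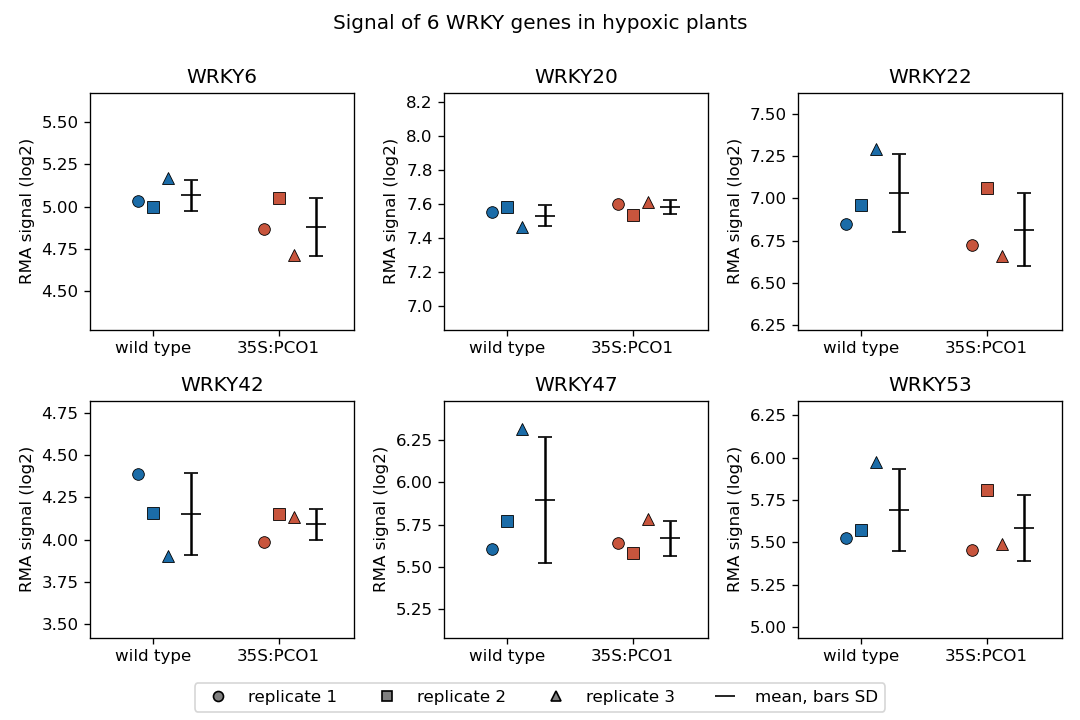
Signal (RMA, log2) of each WRKY gene on the 6 arrays, with wild type in blue, 35S:PCO1 in red, marker shapes for replicate numbers, and the group mean with SD (n = 3) beside the points; every panel spans the same log2 range around its own mean. In each panel the groups overlap, and wild type replicate 3 is the highest array for WRKY6, WRKY22, WRKY47 and WRKY53.

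**Figure D2:**
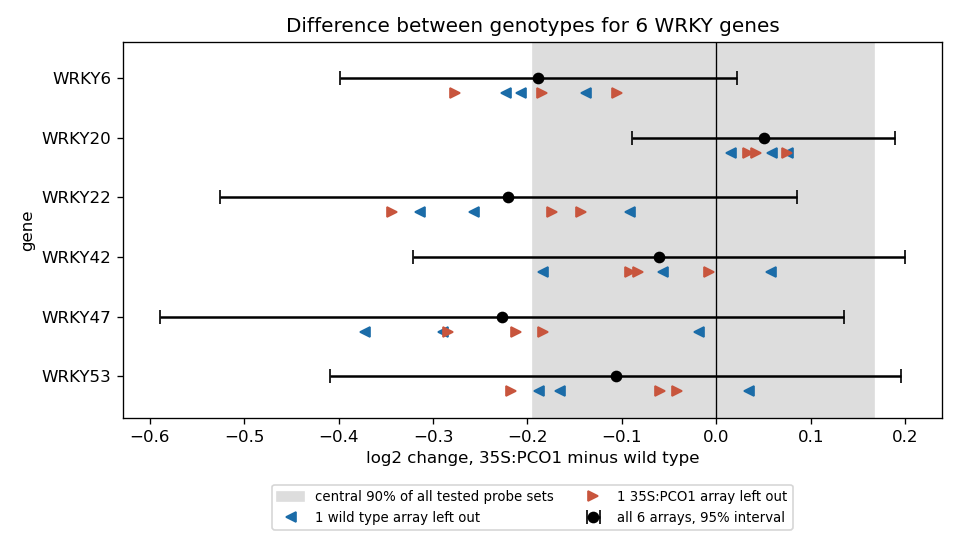
Log2 change between genotypes (35S:PCO1 minus wild type) for each WRKY gene (black points, 95% intervals from limma), with the change when 1 array is left out (triangles) and the 5th to 95th percentile of all tested probe sets (grey band, -0.19 to 0.17). All 6 intervals include 0, and the triangles of WRKY42 and WRKY53 lie on both sides of it.

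Where these signals lie on the arrays was described by rank, since no detection calls were used. Rank depends on how well a probe set binds as well as on transcript amount, so it does not order the genes by abundance. WRKY20 and WRKY22 lay above the array median on all 6 arrays. WRKY20 exceeded 72.5% to 75.5% of the tested probe sets, and WRKY22 61.0% to 70.0%. WRKY47 and WRKY53 lay close to the median, which each exceeded on 1 array only, wild type replicate 3. Their ranks ran from 46.1% to 56.0% and from 44.2% to 51.3%. WRKY6 and WRKY42 lay below the median on every array, at 33.6% to 40.8% and 17.7% to 27.5%. Taken by genotype, WRKY20 and WRKY22 were the genes above the median on all 3 arrays of wild type, and also on all 3 of 35S:PCO1.

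The WRKY genes varied more between replicate arrays than most probe sets did. The within-group SD, pooled over both groups, was 0.27 for WRKY47, 0.22 for WRKY22, 0.22 for WRKY53, 0.18 for WRKY42 and 0.14 for WRKY6 on the log2 scale. The median over all tested probe sets was 0.089. The SD of WRKY47 exceeded that of 98.2% of them, and those of WRKY22 and WRKY53 exceeded 96.7% and 96.5%. WRKY20, at 0.054, exceeded 17.0%. In relation to the other probe sets, the signed changes of WRKY47 and WRKY22 lay towards the low end. Only 3.08% and 3.32% of probe sets showed a lower, more negative change, but the errors of both genes were large. The smallest change that was called anywhere on the array was 0.38 in size.

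**Figure D3:**
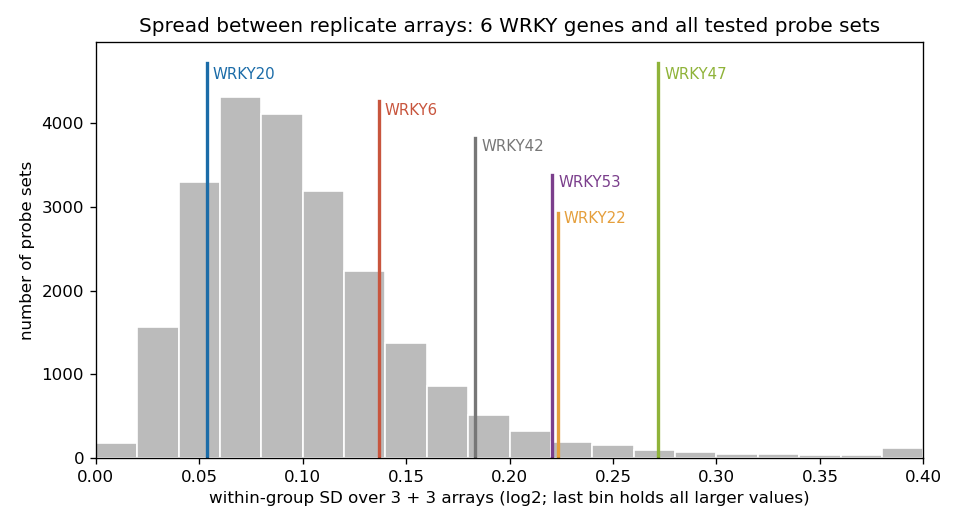
Within-group SD (log2, pooled over the 3 wild-type and 3 35S:PCO1 arrays) of all tested probe sets as a histogram, with the 6 WRKY genes as vertical lines. WRKY20 lies left of the median of 0.089 and the other 5 lie right of it, up to 0.27 for WRKY47.

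The spread of WRKY6, WRKY22 and WRKY53 ran in parallel across arrays. In all 3 genes wild type replicate 3 was the highest of its group and 35S:PCO1 replicate 2 the highest of its own, an order that 14.5% of all tested probe sets shared. WRKY22 deviated from its group mean by 0.26 on wild type replicate 3 and by 0.25 on 35S:PCO1 replicate 2, and WRKY53 by 0.28 and 0.22. WRKY20 ran the other way, with its lowest signal of each group on these same arrays, but its deviations were small, at -0.070 and -0.048. WRKY47 shared the high value of wild type replicate 3, at 0.42 above its group mean, but not that of 35S:PCO1 replicate 2.

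Correlations were computed for all 15 pairs of the 6 genes over the 6 arrays, each with an exact 2-sided permutation test and adjustment over the 15 pairs. The group means were not removed, and the test treats all 6 arrays as exchangeable. Both r and p thus mix any difference between the genotypes with the spread between replicate arrays. WRKY22 and WRKY53 had a Pearson r of 0.949 (exact p = 0.0056, adjusted p = 0.042) and a Spearman rho of 0.943 (exact p = 0.017, adjusted p = 0.062). Without wild type replicate 3 and 35S:PCO1 replicate 3, the arrays farthest from the median of WRKY22, r was 0.915. WRKY6 and WRKY22 had an r of 0.908 (exact p = 0.0083, adjusted p = 0.042) and a rho of 0.943 (exact p = 0.017, adjusted p = 0.062), and r was 0.832 without the same arrays. The pair of WRKY6 and WRKY53 was looser, with an r of 0.777 (exact p = 0.019, adjusted p = 0.049). Its rho was 0.886 (exact p = 0.033, adjusted p = 0.083), and r was 0.725 without the same arrays. WRKY6 and WRKY20 were opposed, with an r of -0.892 (exact p = 0.0028, adjusted p = 0.042), a rho of -1 (exact p = 0.0028, adjusted p = 0.042) and an r of -0.879 without them. In all, 6 of the 15 pairs had an adjusted p under 0.05 by Pearson's r, and 1 by Spearman's rho. With 3 arrays each, the groups are too small for a correlation within a genotype.

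Other probe sets followed these genes as closely as their partners did, in shares from 0.259% to 6.66% of those tested. The signal of WRKY22 was followed at least as closely as by WRKY53 by 115 other probe sets, or 0.506% of those tested, WRKY53 itself among them. Counted in the same way, 59 (0.259%) followed WRKY53 as closely as WRKY22 did. For WRKY6 the count was 361 (1.59%) beside WRKY22, 1515 (6.66%) beside WRKY53 and, in the opposed direction, 343 (1.51%) beside WRKY20. The 6 arrays share a common pattern, the second principal component over all tested probe sets, which held 30.6% of the variance and had scores of 17.4 on wild type replicate 3, 4.56 and 3.70 on wild type replicate 1 and 35S:PCO1 replicate 2, and -11.0 to -6.99 on the remaining arrays. Across the 6 arrays the signal correlated with this score at 0.876 for WRKY6, 0.867 for WRKY22, 0.859 for WRKY53 and -0.985 for WRKY20, as a description over values that share the same arrays. For WRKY47 the value was 0.609 and for WRKY42 it was -0.202. What this component stands for was not tested. The array of wild type replicate 2, with the lowest score on the first component (-18.8, the others -6.13 to 11.6) and the highest 3 prime over 5 prime log2 signal of the GAPDH control (0.813, the others 0.271 to 0.435), was neither the highest nor the lowest of the 6 arrays for any of the 6 genes.

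**Figure D4:**
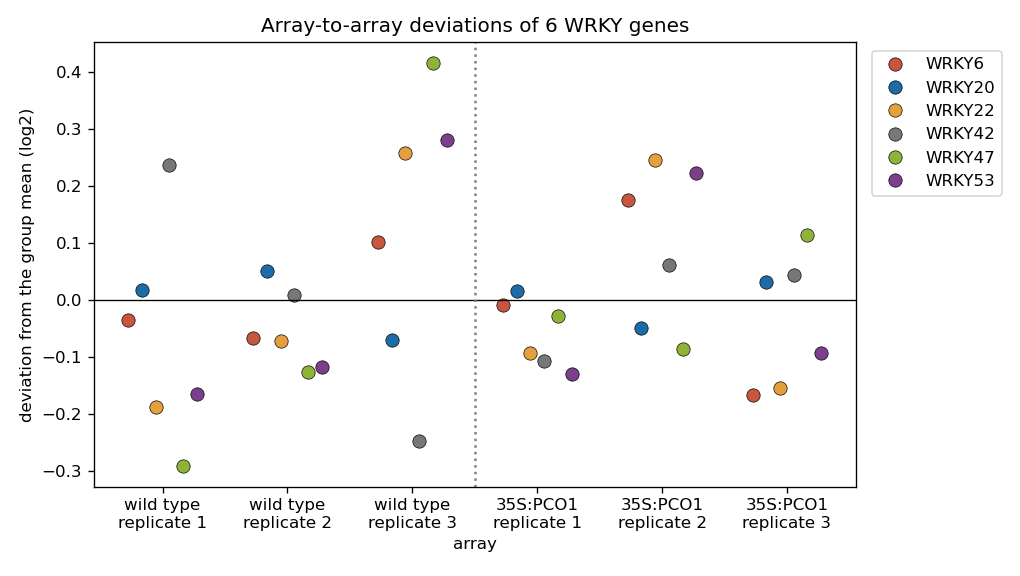
Deviation of each WRKY gene from its group mean (log2) on each of the 6 arrays; points are side by side within an array and colours mark the genes. On wild type replicate 3 and 35S:PCO1 replicate 2, WRKY6, WRKY22 and WRKY53 lie above 0 and WRKY20 lies below it.

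Known targets, pathways and partners of WRKY and MYB factors, with the group VII ethylene response factors, were taken from 9 lists with 92 genes in all, of which 10 genes on 6 lists could be matched and 0 were called by limma. At an unadjusted p under 0.05 there was 1 of the 10, against 10.4% of all tested probe sets, and in 2 of the 10 the groups did not overlap, against 16.2%, so both counts were near the background. The former was UGT78D2, a flavonoid glucosyltransferase, whose 35S:PCO1 arrays (5.60, 5.67 and 5.70) all lay below the wild-type arrays (5.74, 5.83 and 5.85). Its log2 change was -0.15 (SE 0.062, unadjusted p = 0.040 and adjusted p = 0.45 by limma). Among the 4 matched of 15 flavonoid genes, DFR, a reductase on the way to anthocyanins, had a log2 difference of -0.20 (SE 0.13, adjusted p = 0.64). The median over those 4 was -0.036.

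For aliphatic glucosinolates, the sulfur-rich defence compounds of the cabbage family, 2 of 13 genes were matched. BCAT4, an aminotransferase of methionine chain elongation, had a within-group SD above that of 99.9% of the tested probe sets, with log2 signals of 8.49, 8.99 and 7.81 for wild type, replicates 1, 2 and 3, and 8.38, 7.88 and 8.73 for 35S:PCO1. Its lowest array in each group was the array on which WRKY22 and WRKY53 were highest. The share of all tested probe sets that were lowest on both of these arrays was not counted. The highest BCAT4 arrays were wild type replicate 2 and 35S:PCO1 replicate 3, an order that 15.2% of all tested probe sets shared. A link between BCAT4 and the WRKY genes was not tested. The genotype difference of BCAT4 was -0.10 on the log2 scale (SE 0.29, adjusted p = 0.94 by limma). AT2G31790, listed as the glucosyltransferase UGT74C1, differed by 0.17 (SE 0.077, adjusted p = 0.50) without overlap of the groups.

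Single genes stood for the remaining lists. CYP71B6, a cytochrome P450 and the only matched gene of 4 on the camalexin list, differed by -0.080 on the log2 scale (SE 0.061, adjusted p = 0.71 by limma). WRKY factors control the pathway of camalexin, a phytoalexin, but whether CYP71B6 stands for that pathway was not tested. UGT74B1, a glucosyltransferase of the indolic glucosinolates, had 0.098 (SE 0.060, adjusted p = 0.63). GUT2, also called IRX10, a xylan synthesis gene of the secondary wall, had 0.0020 (SE 0.075, adjusted p = 1.00), and WSD1, a wax ester synthase, had 0.067 (SE 0.060, adjusted p = 0.76). Salicylate defence, the kinases and other partners of WRKY proteins, and the group VII ethylene response factors could not be matched and are not analysed here. MYBC1, whose symbol has a letter between MYB and the number and so was not selected, was picked after its values were seen. Its genotype difference was -0.092 (SE 0.071, adjusted p = 0.72 by limma) and its wild-type mean 7.83 ± 0.12 (SD, n = 3).

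The labelled tissue was checked with marker genes. Leaf markers were bright, with 3 of 8 matched (LHCB4.1, PSAN and RCA) and log2 signals from 12.3 to 13.3. Of 7 root markers 3 were matched (PYK10, EXPA7 and EXPA18), with signals from 4.88 to 7.30. Their mean per array ran from 5.90 to 6.03 in wild type and from 5.85 to 5.87 in 35S:PCO1, without overlap. Taken singly, the groups overlapped for each of these 3 genes. Among single probe sets, 16.2% of all tested did not overlap. The mean of the leaf markers per array ran from 12.93 to 12.97 in wild type and from 12.86 to 12.94 in 35S:PCO1, with overlap. None of the 6 matched markers was called by limma, and the part of root tissue in the WRKY values was not tested. Of the flower and seed markers none was matched.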

How the data were processed

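Biotin-labelled material from the total RNA of 6 samples was read on Affymetrix Arabidopsis GeneChips, per the labels' protocols. The authors deposited log2 values from RMA, or robust multi-array average, a tool named by the submitters' processing notes without a version. RMA removes background, forces a common distribution on the arrays and summarises each probe set, so a shift of a whole array is lost. Array medians lay between 5.86 and 5.91. Precision is limited by the number of arrays.

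Of 22810 probe sets, 64 controls were left out. The platform annotation, with symbols brought up to date from the TAIR10.1 gene table, names 1 gene for 13513 probe sets and several for 503; 8730 are not listed. The deposited files name no genome build for their probe sets, so the gene table served for names only and none of its coordinates are given. The genotypes were compared on all 22746 probe sets by limma 3.58.1 (lmFit, eBayes, R 4.3.3), 2-sided and with no covariate. The procedure was also run on simulated data, with independent noise and with added changes larger than those of the WRKY genes. That run therefore cannot show how well changes of the WRKY size would be found. Groups and replicate numbers came from the sample titles. All members were named, together with called genes of the target lists or, where none was called, the 2 with the largest change. The members and lists were chosen with earlier results of these data known. The planned counts and medians for MYB genes had no member to use. Alternatives were a replicate block, array centring, a second quantile normalization, trended and robust eBayes, array weights, filters on dim and on less specific probe sets, the mean over probe sets of a gene, other thresholds and each array left out in turn.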

Additional observations from a re-analysis of the deposited data

How the results depend on the processing

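The count of 0 called WRKY genes was the same under every alternative run, which included an adjusted p under 0.1, array weights and each array left out in turn. The median log2 change of the 6 genes ranged from -0.20 to -0.055 over 14 alternatives, the latter without wild type replicate 3. The direction of WRKY6, WRKY20, WRKY22 and WRKY47 was kept in all of their alternatives (WRKY6 and WRKY42 fall under the filter on dim probe sets and had no value there), while that of WRKY42 (-0.18 to 0.058 with 1 array left out) and WRKY53 (-0.22 to 0.034) turned without wild type replicate 1 and 3, respectively, with fewer samples. The lowest adjusted p of any WRKY gene was 0.22, for WRKY6 with array weights. The number of WRKY genes above the array median on all arrays was 2, and 4 lay above the 40th percentile. Over all probe sets, 60 were called; the count was 255 with array weights, 26 with the replicate number as a block, and 23 to 60 with 1 array left out; the cause was not tested. Whether the replicate numbers pair the samples is not known. Deviations from the group means of same-numbered arrays correlated at -0.059, -0.22 and -0.26 for numbers 1, 2 and 3. For arrays with different numbers the values ran from -0.036 to 0.23. Deviations from a mean of 3 arrays are tied to one another, so these values cannot decide it. The replicate block changed no WRKY call. The precision of the WRKY values is limited by 3 arrays per group.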
